A study of Mus musculus with 6 samples.

Results

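The 9 genes described here encode the signalling route of leukaemia inhibitory factor (LIF): the ligand gene Lif, the receptor chains Lifr and Il6st (gp130), the kinases Jak1 and Jak2, the transcription factor Stat3, the feedback inhibitors Socs2 and Socs3, and the kinase gene Pim1. They were taken by symbol as members of the pathway, with no measured value in the rule but with earlier results of these data known. All 9 of them stood among the 53819 gene symbols of the count table and among the 17155 genes with enough reads for a test. The samples were gastruloids, embryo-like 3D aggregates grown from E14, a line of mouse embryonic stem cells (ESCs), in 2 groups. The 3 untreated samples were compared with 3 samples that had received budesonide, a synthetic glucocorticoid, for 80 h. All samples came from that 1 cell line, and the labels name no allele, vehicle, dose, collection time of the untreated aggregates or presence of LIF in the medium. The labels also do not say that replicates were separate cultures, so each p-value is relative to the spread among these libraries alone, which may be technical.

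LIF binds LIFR, which then pairs with gp130, and JAK kinases bound to the receptor tails phosphorylate each other, the receptor and STAT3. Phosphorylated STAT3 enters the nucleus and binds DNA elements with inverted TTC and GAA arms. In mouse ESCs this route maintains self-renewal, in part through the transcription factors Klf4, Tfcp2l1 and Gbx2, and it induces its own inhibitor, SOCS3, which binds gp130 and blocks JAK activity. The abundance of these mRNAs is not a measure of STAT3 phosphorylation, which these data do not contain.

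The promoter windows of the members are shown first because Socs3 and Pim1, both known targets of STAT3, fell together (values below). RefSeq windows from 250 bases before to 50 after a transcription start (build GRCm38.p6) matched 8 members with 10 windows, all but Socs2. They were searched for the STAT element TTCNNNGAA, where N is any base. Both strands were searched. The element was in 1 of the 10 member windows, that of Socs3, and in 8.30% of the 32851 windows of all genes. The sequences below are the 250 bases upstream of the start, 5′ to 3′, with the element in capitals. Socs3 lies at chr11:117969367-117969616 on the minus strand, and the first Pim1 window, printed because Pim1 fell as far as Socs3 without a match, at chr17:29490535-29490784 on the plus strand.
Socs3: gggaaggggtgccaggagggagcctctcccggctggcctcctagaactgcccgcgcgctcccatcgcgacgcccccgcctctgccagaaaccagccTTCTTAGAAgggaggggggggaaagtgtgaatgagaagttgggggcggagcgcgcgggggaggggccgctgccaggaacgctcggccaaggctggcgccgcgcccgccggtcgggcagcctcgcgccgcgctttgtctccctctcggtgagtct
Pim1: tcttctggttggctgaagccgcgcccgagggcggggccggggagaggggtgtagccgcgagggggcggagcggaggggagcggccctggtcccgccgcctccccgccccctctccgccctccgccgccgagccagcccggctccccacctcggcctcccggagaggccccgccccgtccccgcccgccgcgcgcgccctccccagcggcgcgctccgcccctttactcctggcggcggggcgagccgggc
The Socs3 match, TTCTTAGAA, ran from position -154 to -146 relative to the start. The wider-spaced pattern TTCNNNNGAA was in 0 of the 10 member windows and in 6.95% of all windows. The pattern AGAACANNNTGTTC, a strict form of the glucocorticoid response element, was in 0 of the 10 and in 16 of the 32851. The 2 STAT patterns differ by 1 base of spacing and were counted separately, and a match or its absence describes only these letters in these windows. Both printed stretches were rich in G and C, at 71.6% for Socs3 and 82.4% for Pim1. This was not particular to the fallen genes. Over the whole window the first of Lifr, which rose, had 81.3% and that of Jak2, which did not pass, 81.0%. The second Pim1 window had 49.0%.

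Of the 9 members 5 rose with budesonide (Lifr, Il6st, Jak1, Stat3 and Socs2), 2 fell (Socs3 and Pim1), and Lif and Jak2 did not pass the test. The test was edgeR's quasi-likelihood test with Benjamini-Hochberg adjustment over all genes, called at an adjusted p under 0.05. Over all tested genes 28.7% were called, 15.2% as higher and 13.5% as lower. Genes with more reads were called more often: among the 11084 genes whose mean was 5 CPM or more (CPM, a gene's count relative to the total of its library, with totals scaled by the TMM method) 38.8% were called, 21.9% as higher and 16.8% as lower. In 6 of the 9 members the libraries of the 2 groups did not overlap, against 39.6% of all tested genes and 49.3% of those with at least 5 CPM. Socs3, 1 of these 6, had group means of 6.31 and 2.85 CPM and lay outside that last set. The median log2 fold change was 0.33 over the 9 members and -0.02 over all tested genes. In bulk RNA, fewer cells of a type and less RNA per cell cannot be told apart.

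**Figure D1:**
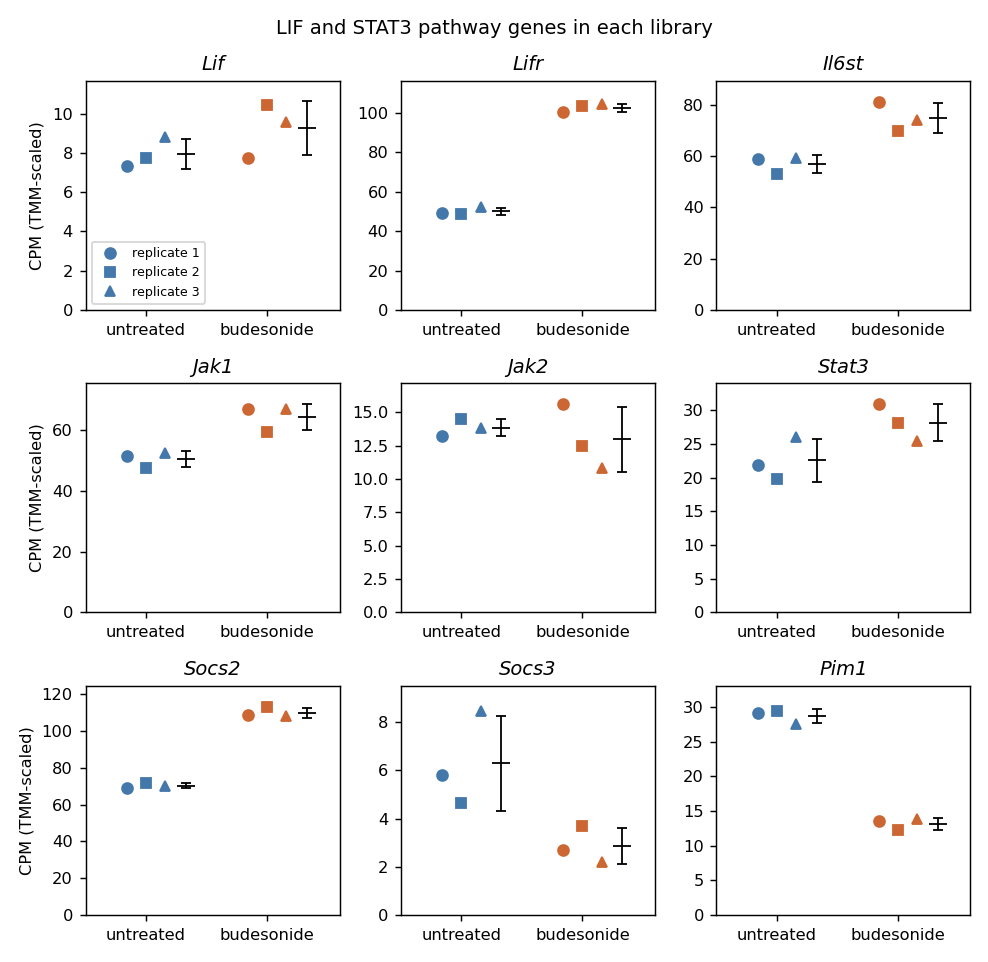
TMM-scaled CPM (y axis, from 0) of each of the 9 genes in the 3 untreated and 3 budesonide libraries. Each point is a library, with its replicate number as the symbol, and the black mark is the mean ± SD of the group. Lifr, Il6st, Jak1 and Socs2 lie higher in every budesonide library and Socs3 and Pim1 lower, while the groups overlap for Lif, Jak2 and Stat3.

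Lifr, the chain that binds LIF itself, rose the most of the 9 genes. It stood at 49.1, 48.8 and 52.2 CPM in the untreated libraries 1, 2 and 3 and at 100.45, 103.31 and 104.42 CPM in the budesonide libraries. The groups were far apart, and the spread within a group was 3.73% of the mean without and 1.995% with budesonide. The log2 fold change was 1.04 ± 0.07 (SE; n = 3 per group), a 2.05-fold rise (edgeR adjusted p = 5.72e-16). By size of the fold Lifr ranked 249 among the 2601 genes that rose. Mouse Lifr also gives a soluble receptor by alternative splicing, and a count per gene does not separate it from the membrane form.

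Il6st encodes gp130, the signalling chain shared by the receptors of the interleukin-6 family. It had 58.8, 53.0 and 59.4 CPM in untreated and 81.3, 69.8 and 74.1 CPM in budesonide libraries. Every budesonide library was above every untreated library, with the smallest gap between untreated library 3 and budesonide library 2. The rise was 1.32-fold (log2 fold change 0.40 ± 0.08, SE; edgeR adjusted p = 8.24e-05).

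Because Lifr rose more than Il6st, the balance of reads between the 2 receptor chains moved. Untreated libraries held 0.834, 0.920 and 0.878 Lifr reads per Il6st read, and budesonide libraries 1.24, 1.48 and 1.41. No library of one group reached the other: Il6st had more reads in every untreated library and Lifr in every budesonide library. The ratio was 1.56-fold higher with budesonide (exact permutation test over the 6 libraries, two-sided p = 0.1, also 0.1 when adjusted over the 3 ratios computed, which is the smallest p that 3 against 3 allows).

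Lif, the ligand, was expressed at a low level in both groups. It had 7.32, 7.73 and 8.80 CPM without and 7.75, 10.4 and 9.56 CPM with budesonide, from 48 to 71 reads per library. The groups overlapped, since budesonide library 1 lay within the untreated range. The log2 fold change of 0.22 ± 0.18 (SE) missed the threshold (edgeR adjusted p = 0.430), and its 95% interval ran from -0.16 to 0.59.

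Jak1, the kinase on which gp130 signalling mainly depends, rose 1.27-fold. Its values were 51.4, 47.5 and 52.5 CPM without and 66.8, 59.3 and 66.9 CPM with budesonide, with no overlap (log2 fold change 0.35 ± 0.08, SE; edgeR adjusted p = 0.000688). Jak2, which binds gp130 too and is the main kinase of the growth hormone and erythropoietin receptors, had 13.3, 14.5 and 13.8 CPM and then 15.6, 12.5 and 10.8 CPM. The 3 budesonide libraries of Jak2 fell on both sides of the untreated range. Its log2 fold change was -0.08 ± 0.15 (SE; 95% interval -0.38 to 0.23; edgeR adjusted p = 0.754), and it was 0.03 without budesonide library 3. There were 3.87, 3.28 and 3.80 Jak1 reads per Jak2 read in untreated and 4.27, 4.74 and 6.17 in budesonide libraries. This ratio was 1.37-fold higher with no overlap of the groups (exact permutation two-sided p = 0.1).

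Stat3, the transcription factor of the route, showed a small rise that depended on single libraries and on the method. It had 21.8, 19.8 and 26.1 CPM without and 30.9, 28.1 and 25.4 CPM with budesonide. Untreated library 3 was above budesonide library 3, so the groups overlapped. The log2 fold change was 0.33 ± 0.12 (SE; 1.26-fold; edgeR adjusted p = 0.0309). The call was lost in DESeq2 (adjusted p = 0.102), in edgeR under upper quartile scaling (0.0710), without scaling factors (0.106) or when low counts were not filtered (0.0868), and in edgeR without untreated library 1 (adjusted p = 0.0632), untreated library 2 (0.2045) or budesonide library 1 (0.187).

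**Figure D2:**
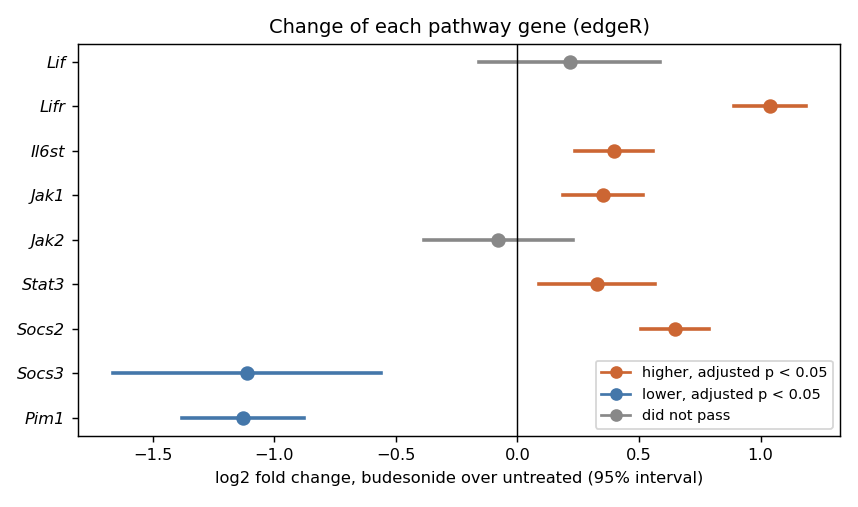
Log2 fold change of each of the 9 genes, budesonide over untreated (x axis), with its 95% interval from the edgeR fit. Points right of the line at 0 are higher with budesonide. Lifr has the largest rise at 1.04, Socs3 and Pim1 lie near -1.1 with the wider interval for Socs3, and the intervals of Lif and Jak2 span 0.

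The 2 feedback inhibitors moved in opposite directions. Socs2, best known as an inhibitor of growth hormone signalling and a target of STAT5, rose from 68.9, 71.7 and 70.1 CPM to 109, 113 and 108 CPM. Its libraries were the most even of the 9 genes in the untreated group, with a spread of 2.01% of the mean, and the groups did not overlap. The rise was 1.57-fold (log2 fold change 0.65 ± 0.07, SE; edgeR adjusted p = 1.52e-10).

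Socs3, the inhibitor that STAT3 induces and that acts on gp130, was lower in every budesonide library than in any untreated one. It had 38, 33 and 54 reads (5.79, 4.64 and 8.48 CPM) in untreated and 19, 25 and 12 reads (2.68, 3.68 and 2.21 CPM) in budesonide libraries. The nearest libraries of the 2 groups were less than 1 CPM apart, and untreated library 3 was high within its group. The log2 fold change was -1.11 ± 0.27 (SE; 2.16-fold lower; edgeR adjusted p = 0.00133), and -0.83 with adjusted p = 0.0440 without untreated library 3. For scale, 95% of 1773 olfactory and vomeronasal receptor genes, which these cells are not known to use, lay at or below 1.655 to 2.06 CPM in the budesonide libraries, so the treated level of Socs3 was close to that background.

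Read against each other within a library, there were 11.9, 15.5 and 8.26 Socs2 reads per Socs3 read without and 40.6, 30.8 and 49.0 with budesonide. The ratio was 3.43-fold higher, and the lowest budesonide value was above the highest untreated one (exact permutation two-sided p = 0.1). The other SOCS family genes did not pass, with edgeR adjusted p from 0.322 to 0.937: Socs1 (log2 fold change -0.61 ± 0.46, SE), Socs4 (-0.10 ± 0.10), Socs6 (-0.14 ± 0.10), Socs7 (-0.14 ± 0.10), Socs5 and Cish, a STAT5 target (-0.43 ± 0.32).

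**Figure D3:**
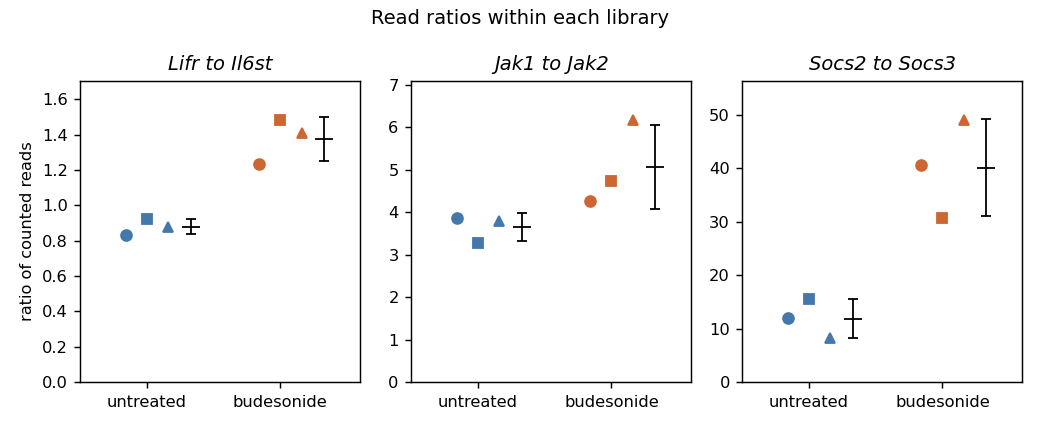
Ratio of counted reads of 2 genes within each library (y axes, from 0), for Lifr to Il6st, Jak1 to Jak2 and Socs2 to Socs3. Points are libraries with the replicate number as the symbol, and black marks are mean ± SD. In all 3 panels every budesonide library lies above every untreated one, most widely for Socs2 to Socs3, at 30.8 to 49.0 against 8.26 to 15.5.

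Pim1, a serine/threonine kinase gene that STAT3 and STAT5 induce, fell 2.19-fold. It had 29.1, 29.5 and 27.7 CPM without and 13.5, 12.2 and 13.8 CPM with budesonide. The groups stood well apart with a spread of 3.43% and 6.40% of their means (log2 fold change -1.13 ± 0.12, SE; edgeR adjusted p = 3.95e-10). Pim1 thus fell by about the same amount as Socs3, with a narrower 95% interval (-1.38 to -0.88, against -1.66 to -0.56). Of its relatives Pim2 fell too, from 155.97 ± 5.44 to 94.8 ± 4.14 CPM (SD, n = 3; log2 fold change -0.72 ± 0.07, SE; edgeR adjusted p = 1.57e-12). Pim3 had 23.9 ± 0.803 CPM without and 26.3 ± 2.31 CPM with budesonide (edgeR adjusted p = 0.429; log2 fold change 0.13 ± 0.11) and passed only with an offset for GC content and transcript length (adjusted p = 0.0312).

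Levels of different genes are compared per kilobase of the longest annotated transcript (GENCODE M21). In untreated aggregates Socs2 was the highest of the 9 at 16.6 ± 0.331 CPM per kilobase (SD, n = 3), followed by Pim1 at 10.7 ± 0.363 and Jak1 at 10.3 ± 0.531, whose libraries overlapped. Il6st at 6.58 ± 0.408 was above Lifr at 5.18 ± 0.193 with no overlap. Stat3 followed at 3.735 ± 0.530. Jak2 at 2.755 ± 0.121, Socs3 at 2.47 ± 0.773 and Lif at 1.98 ± 0.190 formed the low end, where Socs3 overlapped both neighbours.

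With budesonide the order changed around Pim1 and the receptor. Socs2 at 25.9 ± 0.652 and Jak1 at 13.1 ± 0.886 CPM per kilobase led, and Lifr at 10.6 ± 0.216 now stood above Il6st at 8.65 ± 0.671, again with no overlap. Pim1 had dropped to 4.88 ± 0.312, overlapping Stat3 at 4.65 ± 0.454. Jak2 at 2.58 ± 0.484 and Lif at 2.30 ± 0.342 overlapped, and Socs3 was the lowest at 1.12 ± 0.295. These levels assume that the longest transcript is the one expressed.

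**Figure D4:**
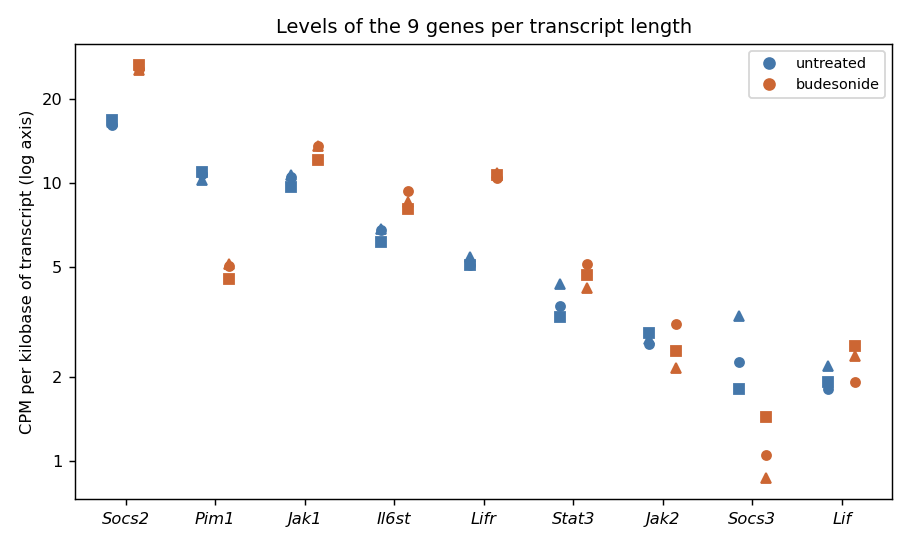
Level of the 9 genes in CPM per kilobase of the longest GENCODE M21 transcript (y axis, log scale), ordered by the untreated mean. Points are libraries, with the replicate number as the symbol. Lifr moves from below Il6st to above it, and Pim1 drops from 10.7 to 4.88.

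The rest of the pathway was read from 9 lists by role, holding 91 further genes, of which 70 had enough reads. Of these 70, 20 rose and 11 fell, 44.3% in all, against 28.7% of all tested genes and 38.8% of the more abundant ones. Their median log2 fold change was 0.01. The call held in each of 15 other settings for 13 of the 20 rises and 6 of the 11 falls. It did not for Jak3, Pias1, Pias4, Ptpn2, Ptpn6, Grb2 and Shc1 among the risen, nor for Cntfr, Stat5b, Ptpn11, Myc and Tap1 among the fallen.

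Of 10 ligand genes of the family only Lif and Ctf1 (cardiotrophin 1) had enough reads, and neither passed. Ctf1 had 11 to 30 reads per library (log2 fold change -0.39 ± 0.34, SE; edgeR adjusted p = 0.443). Il6 had 7, 8 and 5 reads without and 0, 7 and 7 with budesonide, and Il11 had 8, 5 and 6 and then 3, 5 and 2. Neither was tested, for lack of reads.

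Of 6 tested receptor chains 2 rose, the members Lifr and Il6st, and 1 fell (50% called, against 28.7% of all tested genes). Without these 2 members the share was 25.0% of 4. The fallen one was Cntfr, the ciliary neurotrophic factor chain that joins LIFR and gp130, which went from 56.3 ± 1.27 to 47.5 ± 1.49 CPM (edgeR adjusted p = 0.0193; log2 fold change -0.25 ± 0.08, SE). Its call was lost in DESeq2 (adjusted p = 0.139), with limma (0.0607), with the GC and length offset (0.399) and in edgeR without untreated library 1 (adjusted p = 0.0615), untreated library 3 (0.0772) or budesonide library 2 (0.0958). The chains Il6ra (-0.64 ± 0.31, SE), Il11ra1 (-0.23 ± 0.23) and Osmr (0.33 ± 0.30), specific to other ligands, did not pass. All 3 had fewer than 50 reads in every library.

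Of the 11 JAK and STAT genes, all tested, 7 rose and 1 fell, with a median log2 fold change of 0.45. That is 72.7% called, against 28.7% of all tested genes and 38.8% of those with at least 5 CPM. Without the members it was 75.0% of 8. The groups did not overlap in 9 of the 11, against 39.6% and 49.3% of the same sets. Stat2, a transcription factor of the interferon response, rose from 13.4 ± 2.23 to 27.3 ± 3.35 CPM (1.01 ± 0.13, SE; edgeR adjusted p = 4.03e-08), next to 1.04 for Lifr. Tyk2, a JAK that also binds gp130, rose from 19.6 ± 3.12 to 29.3 ± 3.45 CPM (0.57 ± 0.12; edgeR adjusted p = 0.000240). The other risen genes beside Jak1 and Stat3 were Jak3, Stat4 and Stat6.

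Stat5b was the one that fell, from 12.01 ± 1.985 to 8.58 ± 1.43 CPM (edgeR adjusted p = 0.0380). That call was lost in DESeq2 (adjusted p = 0.171), with the GC and length offset (0.0860) and in edgeR without untreated library 2 (adjusted p = 0.0687) or 3 (0.256) or budesonide library 2 (0.113) or 3 (0.148). Stat5a (log2 fold change 0.38 ± 0.24, SE) did not pass. The number of JAK and STAT genes called was 8, and 5 in DESeq2, without untreated library 2 and at an adjusted p under 0.01.

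**Figure D5:**
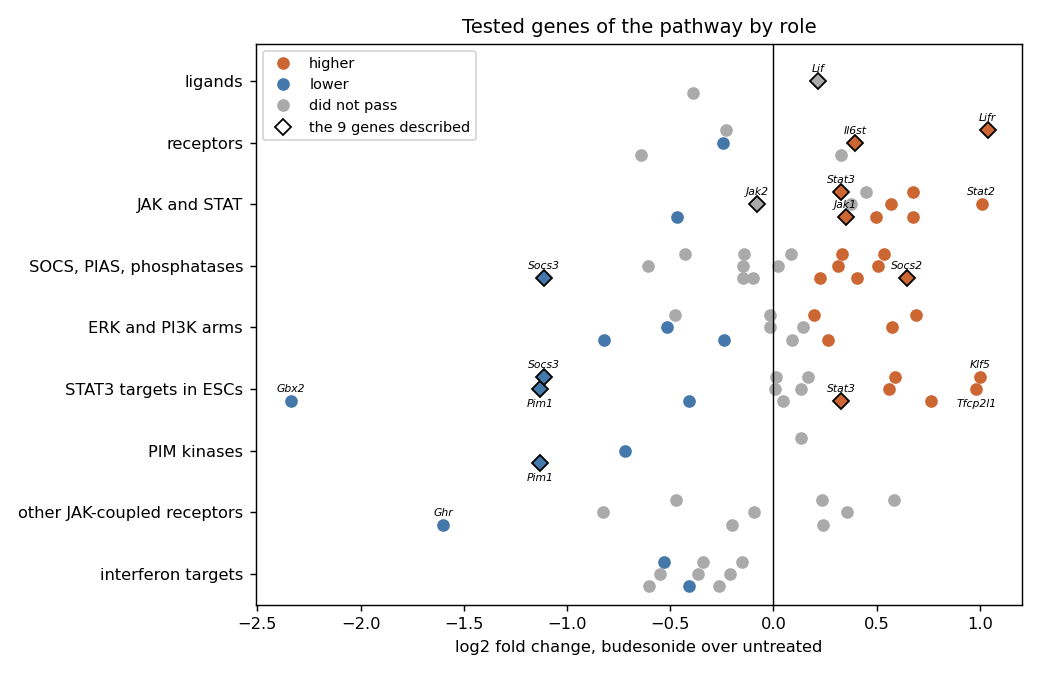
Log2 fold change (x axis, budesonide over untreated) of every tested gene of the 9 role lists. Orange points rose, blue points fell and grey points did not pass, and diamonds are the 9 genes described, some of which stand in 2 lists. JAK and STAT genes lie mostly right of 0, the interferon target genes all lie left of it, of which 2 passed, and Gbx2 at -2.34 is the point farthest from 0.

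Among 16 inhibitors of the route, which include SOCS proteins, PIAS proteins (which bind STATs in the nucleus) and phosphatases, 7 rose and 1, Socs3, fell (median log2 fold change 0.06). The share called was 50%, against 28.7% of all tested genes and 38.8% of the more abundant ones. Without the members it was 42.9% of 14. Beside Socs2 the clearest was Pias2, from 98.8 ± 6.50 to 140.04 ± 6.45 CPM (0.51 ± 0.07, SE; edgeR adjusted p = 3.53e-08). All 4 Pias genes were among the risen, and Ptpn2 and Ptpn6, which encode tyrosine phosphatases, completed the list. Pias1, Pias4, Ptpn2 and Ptpn6 lost the call in 1, 5, 11 and 7 of 15 other settings. The number of inhibitors called was 8, and 5 in DESeq2, with upper quartile scaling, without budesonide library 3 and at an adjusted p under 0.01, and 4 of the 16 without untreated library 2.

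The adaptors and kinases that carry the signal to ERK and PI3K split, with 4 rises and 3 falls among 12 (median log2 fold change 0.04). In all 58.3% were called, against 28.7% of all tested genes (15.2% higher and 13.5% lower) and 38.8% of those with at least 5 CPM. Gab1, a docking protein downstream of gp130, rose from 145 ± 5.88 to 234 ± 9.52 CPM (0.69 ± 0.06, SE; edgeR adjusted p = 5.01e-13), and Pik3cb, a catalytic PI3K subunit, rose by 0.57 ± 0.11. Akt1 fell from 45.9 ± 2.47 to 25.9 ± 2.30 CPM (-0.82 ± 0.10; edgeR adjusted p = 4.40e-09). Mapk3, the gene of the kinase ERK1, fell by 0.52 on the log2 scale.

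Genes known as STAT3 targets in ESCs split in direction. Of 15 tested, 6 rose and 4 fell, with a median log2 fold change of 0.13 (66.7% called, against 28.7% of all tested genes and 38.8% of those with at least 5 CPM). Without the members in the list the share was 58.3% of 12. The rises included Tfcp2l1, a naive pluripotency factor, from 126 ± 6.80 to 249 ± 9.71 CPM (0.98 ± 0.06, SE; edgeR adjusted p = 1.10e-17), and Kdm3a, a histone demethylase, from 168 ± 7.003 to 284 ± 7.47 CPM (0.76 ± 0.06). Stat3, Klf4, Klf5 and Mcl1 rose as well. The falls were Socs3, Pim1, Myc and Gbx2, the last by 2.34 on the log2 scale. Gbx2 is also expressed in posterior epiblast and anterior hindbrain, and many of the listed targets answer to other signals too. Junb, Fos, Sall4, Pim3 and Sbno2 did not pass.

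Receptors of other cytokines that use JAKs gave 0 rises and 1 fall among 9 (median log2 fold change -0.09), a share of 11.1%, below the 28.7% of all tested genes. The fall was Ghr, the growth hormone receptor, from 63, 79 and 78 reads to 25, 29 and 16 reads (10.99 ± 1.33 to 3.58 ± 0.665 CPM; -1.60 ± 0.21, SE; edgeR adjusted p = 4.44e-08), opposite in direction to Socs2. The low share rests on the threshold. The groups did not overlap in 5 of the 9, against 39.6% of all tested genes and 49.3% of those with at least 5 CPM. Ifnar1 (0.24 ± 0.10, SE; edgeR adjusted p = 0.0513) and Ifnar2 (0.58 ± 0.23; 0.0562) were higher and narrowly missed it. Csf3r was lower (-0.82 ± 0.37; 0.0880). Of 9 interferon target genes 2 fell and 0 rose (median -0.37), and this share of 22.2% was also below that of all tested genes. The 2 were Irf1, from 36.2 ± 1.99 to 27.3 ± 2.40 CPM (edgeR adjusted p = 0.00170) and Tap1, from 14.8 ± 3.02 to 10.3 ± 1.12 CPM (edgeR adjusted p = 0.00999). The Tap1 call was lost in DESeq2 (adjusted p = 0.0800) and in edgeR without untreated library 1 (adjusted p = 0.154) or budesonide library 1 (0.0841).

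The 3 genes whose pattern over the 6 libraries was nearest to that of Socs3, among the 11084 more abundant genes, were Arhgap24, Slco3a1 and Usp29. The measure was the root mean square difference of log2 CPM after centring each gene on its mean, and it was 0.15, 0.19 and 0.19. Their choice by likeness fixes their direction (10.2 to 5.03 CPM for Arhgap24, 6.71 to 3.63 for Slco3a1 and 9.90 to 5.07 for Usp29).

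Markers of several cell types differed between the groups. Of 6 ESC markers 4 rose and none fell. That is 66.7% called, against 28.7% of all tested genes and 38.8% of those with at least 5 CPM. The rise was not uniform. Pou5f1, the most abundant of the 6, stayed at 734 ± 7.03 and then 776 ± 48.1 CPM (0.08 ± 0.05, SE; edgeR adjusted p = 0.290). Tdgf1 did not pass either (0.18 ± 0.08; edgeR adjusted p = 0.0860). The summed level of the ESC markers was 1214 to 1264 CPM in untreated and 1719 to 1907 CPM in budesonide libraries. All 4 tested markers of the posterior streak and tailbud, of 6, fell, where 13.5% of all tested genes were called as lower. Tbx6 and Wnt3a had too few reads for a test. The sum of the 6 went from 249 to 271 CPM down to 9.02 to 14.2 CPM. Of 5 neural markers 3 were tested, of which Pax6 and Tubb3 rose and Dcx fell (sum 21.4 to 23.5 and then 30.3 to 35.0 CPM). All 3 were thus called, against 28.7% of all tested genes, and Sox1 and Neurog2 had too few reads.

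Of 8 fibroblast or feeder markers 2 of 6 tested fell, Thy1 and Col1a2 (33.3% called, against 28.7% of all tested genes). The sum was 22.9 to 25.5 and then 15.8 to 17.95 CPM. In untreated libraries 95% of the olfactory and vomeronasal receptor genes lay at or below 1.829 to 1.885 CPM. Dcn and Lum, at 0.745 and 0.244 CPM, were within that range, and the 6 tested stood at 2.16 to 6.53 CPM. Whether such cells were present was not tested. Thy1 lost its call without budesonide library 2 (edgeR adjusted p = 0.0515), and Col1a2 in DESeq2 (adjusted p = 0.0549) and without untreated library 1 (0.0696). Of 9 extraembryonic endoderm markers 1 of 7 tested fell, Foxa2, a share of 14.3% (sum 28.9 to 39.3 and then 17.6 to 21.0 CPM). Foxa2 by itself went from 11.2 ± 2.85 to 0.811 ± 0.433 CPM. Gata6, Gata4 and Sox17 had means of 1.42 to 2.01 CPM in both groups and did not pass, nor did Dab2, Cubn and Pdgfra. No trophoblast marker of 3 tested passed, where 28.7% of all tested genes did (sum 14.3 to 20.1 and then 12.3 to 15.6 CPM). Of the endothelial and blood markers Tek alone of 6 tested passed, as higher, a share of 16.7%. The Tek call was lost in DESeq2 (adjusted p = 0.0971) and in 7 edgeR settings. The endothelial and blood sum was 28.7 to 34.15 and then 32.4 to 38.85 CPM. No marker was at 0 reads in all 6 libraries, but Prl3d1, Hbb-y and Neurog2 had at most 3 reads in any. The part of these shifts in the changes of the 9 genes was not tested.

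The libraries held 5666168 to 7476862 counted reads, and 3 reads correspond to 0.422 to 0.552 CPM. Of the reads 7.12% to 9.48% fell on the mitochondrial ribosomal RNA gene mt-Rnr2. Of all tested genes 4917 changed, 2601 higher and 2316 lower.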

How the data were processed

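Polyadenylated RNA of 3 untreated and 3 budesonide samples was sequenced after a stranded mRNA library preparation, as the labels' protocols state. Per the submitters' processing notes, reads were handled with cutadapt 2.5 and STAR 2.7.5c on the build GRCm39 and counted with featureCounts 2.0, and bcl2fastq and DESeq2 are named too. Which annotation release and strand option were used is not given in the sources used here, so reads of overlapping or antisense genes cannot be told apart. The authors deposited raw counts per gene symbol, 1 column per library. They also deposited a normalized signal for 33560 genes, in which each library is its count over a single factor (largest deviation 0.00562 reads).

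Counts were tested with edgeR 4.0.16 in R 4.3.3: TMM scaling after filterByExpr (minimum count 10 and minimum total 15), a robust quasi-likelihood fit on group alone, and a Benjamini-Hochberg threshold of 0.05 over all 17155 tested genes. Standard errors and 95% intervals come from the quasi-likelihood F statistic, and means ± SD are of TMM-scaled CPM. The procedure was run on simulated counts in which few genes changed, equally in both directions, and all genes had the same spread. In these data more genes changed and the spread differed between genes, so that run does not give their error rate. Libraries of a group differed by 1.42 to 3.12 in chi-square per gene, where 1 would be sampling noise, so each counted once. Ratios of reads were compared with exact permutation tests (scipy 1.17.1).

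Lengths and GC content were taken from the longest GENCODE M21 transcript (97.3% of tested genes), and promoter windows from RefSeq on GRCm38.p6. Both are of another build than the counts, so only gene names joined them. The alternatives were DESeq2 1.42.0, RLE, upper quartile or no scaling, no filter, a filter at 1 CPM in 3 libraries, the replicate number as a block, limma 3.58.1 on log2 of the deposited normalized signal plus 1, a GC and length offset, an adjusted p under 0.01, and each library left out. For the ratios they were each library left out and 1 read added to each count.

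The members, the role lists, the markers and both comparison sets (genes averaging 5 CPM or more, and olfactory and vomeronasal receptors) were chosen with earlier results of these data known. Genes were named by a rule: all members, and of each list up to 2 risen and 2 fallen genes with the smallest adjusted p among those averaging 1 CPM or more, plus the 3 genes nearest to Socs3 in pattern among those averaging 5 CPM or more. Other genes were named after their values were seen.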

Additional observations from a re-analysis of the deposited data

How the results depend on the processing

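Of the 9 members, Lifr, Il6st, Jak1, Socs2, Socs3 and Pim1 kept their direction and passed in each of 15 alternative settings, with log2 fold changes from 0.96 to 1.10 for Lifr, 0.32 to 0.48 for Il6st, 0.27 to 0.42 for Jak1, 0.57 to 0.67 for Socs2, -1.32 to -0.83 for Socs3 and -1.21 to -1.02 for Pim1. Stat3 stayed higher (0.24 to 0.45) but passed in 8 of the 15, and the cause was not tested. Lif passed in none, nor did Jak2, which ran from -0.236 without budesonide replicate 1 to 0.0266, a change of sign, without budesonide replicate 3. The number of members changed was 6 or 7, and the number of all genes changed 3500 to 5189. With no scaling factors the median log2 fold change of all tested genes was -0.10, against -0.02. The ratios stayed higher with budesonide in each setting run, by 0.59 to 0.72 (Lifr to Il6st), 0.31 to 0.57 (Jak1 to Jak2) and 1.54 to 1.99 (Socs2 to Socs3) on the log2 scale.

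Same-numbered libraries of the 2 groups correlated at -0.02 to 0.06 in their deviations. Libraries 1 (0.04) and 2 (0.06) correlated best with their own number, and library 3 (-0.02) did not. Correlations this weak cannot decide whether the numbers pair the samples. With the replicate number as a block the number of members changed was 7, of pathway genes changed 37 and of all genes changed 4986, against 7, 38 and 4917, and no member's call differed. Among the lists, the number called went from 2 to 1 for interferon targets (DESeq2, without untreated replicate 1, without budesonide replicate 1), and from 1 to 2 or 3 for other cytokine receptors (RLE, limma, GC and length offset, without budesonide replicate 3). Extraembryonic endoderm went from 1 to 2 (upper quartile, no scaling) and trophoblast from 0 to 1 (without budesonide replicate 3). Precision was limited by depth for Socs3 (12 to 54 reads) and for the cytokine ligands.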
